A study of Mus musculus with 4 samples.

Results

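The genes described here copy DNA and supply its nucleotides. They were the 38 genes whose symbol stood in a list of replication and nucleotide synthesis genes and was the gene name of a probe on the array, and 38 of 38 were found, read by 44 of 55681 probes and making up 38 of 36095 genes or names. Before a cell copies its DNA, the origin recognition complex, CDC6 and CDT1 load the ring-shaped MCM2-7 helicase onto origins, and CDC45 and the GINS complex then switch it on. Polymerase alpha with primase starts each new strand, replication factor C loads the sliding clamp PCNA, and polymerases delta and epsilon extend the strand, while FEN1 and DNA ligase I join the lagging-strand fragments and replication protein A covers exposed single strands. Ribonucleotide reductase, thymidylate synthase, dUTPase and thymidine kinase provide and guard the deoxynucleotide pool. Many of these genes are known as targets of E2F transcription factors and are transcribed most strongly around the start of S phase.

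Total RNA came from RAW264.7, an established mouse macrophage-like cell line that divides in culture. There were 4 groups of 1 array each, namely Linc-AAM knockdown cells kept for 4 h with AEPS at 50 µg/mL, Linc-AAM knockdown cells kept for 4 h in DMEM, scramble cells with AEPS at the same dose and time, and scramble cells in DMEM. AEPS is a polysaccharide of the plant Actinidia eriantha, DMEM is the culture medium, and Linc-AAM is a long intergenic non-coding RNA. All groups carried an integrated vector that encodes the green fluorescent protein EmGFP and an artificial microRNA, and were selected with blasticidin as bulk cultures, so neither line is a clone, per the labels' protocols. The labels report no repeated culture. A difference between 2 arrays therefore has no replicate to set it against, and precision is limited by there being only 4 arrays.

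Levels are given as log2 of the normalized intensity, where 0 is the 75th percentile of the array. That percentile lay between 439.1 and 587.7 intensity units, 53.4% to 58% of the spots were well above background, and 0 spots were saturated. All 38 genes were well above background on all 4 arrays, as were 43 of their 44 probes, so the filter on dim genes removed none of them. The arrays fitted a macrophage line by its markers, with 9 of 10 macrophage markers well above background on all 4 arrays and Mrc1, the mannose receptor gene, on 2. Of the 4 markers each of other cell types, those on all 4 arrays were 2 for T cells (Cd3e and Cd4), 1 for B cells (Cd79a), 0 for epithelial cells and 1 for fibroblasts (Col1a2). By level, Cd4 (2.21 to 2.42 over the arrays) was near the macrophage marker Adgre1 (2.10 to 2.68), while the macrophage marker Csf1r stood at 8.36 to 8.92. The fibroblast markers Pdgfra and Thy1 were above background on no array, while Col1a1 and Col1a2 rose under AEPS by 2.02 and 0.71 on the log2 scale (limma adjusted p = 0.0151 and 0.0387), and their part in the results was not tested. The lines are named as on the scanner files. The deposited value table ranked the probes of each column exactly as the array of the other line in the same medium (Spearman rho across 55657 probes of 1, against 0.969 with the array of the same label), and which source has the lines right was not settled. Averaged over the lines, the AEPS effect is untouched by this, whereas each difference between lines changes sign with it. A search of the probes' gene names, accessions and descriptions for Linc-AAM found 0 probes, so its level was not used here to check the lines.

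The first comparison asked what AEPS did to the replication genes over both lines. Of the 38 genes, 23 fell and 0 rose by limma at an adjusted p under 0.05. As background, 7.29% of 22338 genes tested were called lower and 7.4% higher. The 38 genes were chosen with earlier results of these data known, so this contrast only describes them. The estimate was below 0 for 37 of 38 genes, as it was for 42.6% of all genes, and the median over the 38 was -0.76 on the log2 scale against 0.07 over all genes. At an unadjusted p under 0.05, limma gave 34 lower (16.4% of all genes) and 0 higher (17.5%). On both AEPS arrays 35 of the 38 genes lay below both DMEM arrays, a pattern that 24.7% of all genes showed. At least 2-fold falls were estimated for 9 genes, Cdc6, Tk1, Rpa2, Rfc3, Mcm2, Cdt1, Rrm2, Mcm6 and Pold1, and all 9 passed the test, while 4.14% of all genes had an estimate at least 2-fold lower. Their probes lie, in mm9 coordinates given by the scanner files, at chr11:98782986-98783045 (plus strand) for Cdc6, chr11:117676845-117676904 (minus strand) for Tk1 and chr4:132333990-132334049 (plus strand) for Rpa2. Those of Rfc3, Mcm2 and Cdt1 lie at chr5:152448247-152450045 (minus strand), chr6:88833619-88833678 (minus strand) and chr8:125096893-125096952 (plus strand). Those of Rrm2, Mcm6 and Pold1 lie at chr12:25398824-25398883 (plus strand), chr1:130228178-130228237 (minus strand) and chr7:51788221-51788589 (minus strand). In RNA of whole cultures, fewer cells in S phase and less of these transcripts per cell cannot be told apart.

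The test is an additive limma model of line and treatment in which the error is the line-by-treatment difference, with 1 residual degree of freedom. The variance prior, estimated over all genes tested, counted for 2.82 degrees of freedom, so the calls rest more on that prior than on the arrays' own scatter for a gene. With no filter on dim genes, which raised the genes tested to 36082, limma called 0 of the 38 genes (smallest adjusted p = 0.0722, with 27 lower and 0 higher at an unadjusted p under 0.05), and with the line left out of the model it called 13.

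**Figure D1:**
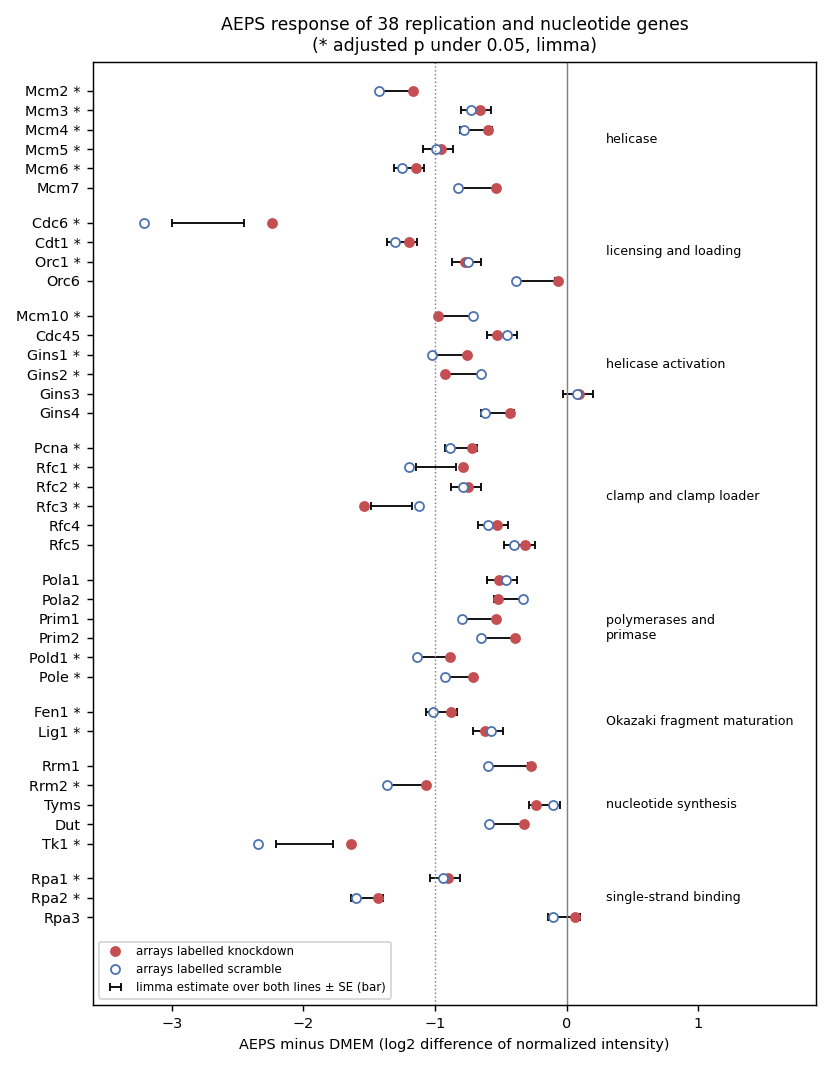
AEPS minus DMEM for each of the 38 genes, grouped by role, as a log2 difference of normalized intensity. Filled points are the pair of arrays labelled knockdown, open points the pair labelled scramble, bars the limma estimate ± SE, asterisks an adjusted p under 0.05 and the dotted line a 2-fold fall; all points lie left of 0 except both of Gins3 and the knockdown point of Rpa3.

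Among the 4 genes that license origins 3 fell, and Cdc6 had the largest fall of the 38 genes. Cdc6, whose product recruits the helicase to origins, stood at -1.11 and -1.72 on the AEPS arrays labelled knockdown and scramble, against 1.13 and 1.49 on the DMEM arrays of the same lines. Both AEPS arrays were far below both DMEM arrays, and the estimated change of -2.73 ± 0.27 (SE; limma adjusted p = 0.0172), a 6.62-fold fall, was the 31st lowest of 22338 genes. A second Cdc6 probe, at another position of the same transcript, differed by -2.97 on the knockdown-labelled and -3.50 on the scramble-labelled arrays.

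Cdt1, the partner of CDC6 in helicase loading, had 4.68 and 4.52 under AEPS on the arrays labelled knockdown and scramble, against 5.88 and 5.82 in DMEM. The AEPS levels of the lines were within 0.16 of each other, and Cdt1 fell 2.38-fold (-1.25 ± 0.12 SE; limma adjusted p = 0.0154). Orc1, the largest subunit of the origin recognition complex, fell by 0.76 (limma adjusted p = 0.0319). Orc6, another subunit of that complex, did not pass the test, with an estimate of -0.23 and a 95% interval of -0.62 to 0.17. Its level differed by -0.06 between AEPS and DMEM on the arrays labelled knockdown and by -0.39 on those labelled scramble.

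Of the 6 genes of the MCM2-7 helicase 5 fell, and the 6 estimates lay between -1.30 and -0.68. Mcm2 had 2.73 and 2.64 under AEPS on the arrays labelled knockdown and scramble, against 3.90 and 4.07 in DMEM, a 2.45-fold fall (-1.30 ± 0.13 SE; limma adjusted p = 0.0175). Mcm6 had 6.07 and 6.22 under AEPS, against 7.21 and 7.47 in DMEM, a 2.29-fold fall (-1.20 ± 0.12 SE; limma adjusted p = 0.0166). For both genes the AEPS arrays were lower than the DMEM arrays by more than 2-fold in each line. Mcm5 fell by 0.98, and Mcm3 and Mcm4 by 0.69 each. Mcm7, with -0.68, missed the threshold (limma adjusted p = 0.0529), and its 95% interval of -1.06 to -0.30 overlapped those of the other 5 genes.

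Of the 6 helicase activation genes 3 fell. Mcm10, which helps to start the loaded helicase, fell by 0.84 (limma adjusted p = 0.035). Gins1 and Gins2, which encode subunits of the 4-part GINS ring, fell by 0.89 and 0.79 (limma adjusted p = 0.0318 and 0.0396). Gins4 had -0.53 and Cdc45 -0.49, and neither passed the test (limma adjusted p = 0.0716 and 0.07). Gins3, the remaining GINS subunit, had 5.73 and 5.72 under AEPS on the arrays labelled knockdown and scramble, against 5.63 and 5.64 in DMEM. Its estimate of 0.09 (95% interval -0.23 to 0.41) was the only one above 0 among the 38 genes, and with quantile normalization or with the deposited value table it was below 0 as well.

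At the sliding clamp, Pcna, which encodes the ring that holds polymerases on DNA, fell by 0.81 ± 0.12 (SE; limma adjusted p = 0.0324). It had 5.72 and 5.79 under AEPS on the arrays labelled knockdown and scramble, against 6.44 and 6.68 in DMEM. Of the 5 clamp loader genes 3 fell. Rfc3 had -0.58 and -0.21 under AEPS, against 0.96 and 0.91 in DMEM, a 2.51-fold fall (-1.33 ± 0.16 SE; limma adjusted p = 0.0217). Rfc1, the large subunit, fell by 0.99 and Rfc2 by 0.77, while Rfc4 (-0.56; limma adjusted p = 0.0557) and Rfc5 (-0.36; limma adjusted p = 0.125) did not pass.

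Of the polymerase and primase genes, 2 of 6 passed the test, and both encode the catalytic subunit of a polymerase that extends DNA strands. Pold1, for polymerase delta, had 3.02 and 3.14 under AEPS on the arrays labelled knockdown and scramble, against 3.91 and 4.27 in DMEM, a 2.02-fold fall (-1.01 ± 0.13 SE; limma adjusted p = 0.0249). Pole, for polymerase epsilon, fell by 0.82 by its brightest probe (limma adjusted p = 0.0334). A second Pole probe differed between AEPS and DMEM by -0.17 on the arrays labelled knockdown and -0.48 on those labelled scramble. The third Pole probe, well above background on only 1 array, differed by -0.74 and -1.61 in the same order. With the mean of all 3 Pole probes the gene did not pass (limma adjusted p = 0.0609). The genes of polymerase alpha and primase, which lay down the first stretch of each strand, had estimates from -0.67 for Prim1 to -0.43 for Pola2. None was called, with Prim1 closest to the threshold (limma adjusted p = 0.0519), and Prim2 had -0.52 (limma adjusted p = 0.0799). The 95% intervals of Pole (-1.17 to -0.46) and Prim1 (-1.04 to -0.30) overlapped, and no difference between these genes was tested. Both genes of fragment joining passed, Fen1, a flap nuclease gene, with a fall of 0.95 (limma adjusted p = 0.0239) and Lig1, the ligase gene, with a fall of 0.60 (limma adjusted p = 0.0497). Lig1 was at the threshold and missed it when probes were averaged over each gene (limma adjusted p = 0.0518).

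The nucleotide genes divided into a pair with large falls and 3 genes that did not pass. Tk1, the cytosolic thymidine kinase that salvages thymidine, had 3.17 and 3.10 under AEPS on the arrays labelled knockdown and scramble, against 4.80 and 5.45 in DMEM. The AEPS levels nearly coincided while the DMEM levels were 0.65 apart, and Tk1 fell 3.98-fold (-1.99 ± 0.21 SE; limma adjusted p = 0.0194). Rrm2, the subunit of ribonucleotide reductase known to limit its activity to S phase, had 4.93 and 4.92 under AEPS, against 5.99 and 6.29 in DMEM, a 2.32-fold fall (-1.22 ± 0.14 SE; limma adjusted p = 0.0204).

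Rrm1, the large subunit of the same enzyme, had -0.43 (95% interval -0.83 to -0.04; limma adjusted p = 0.127), and the difference between the subunits was not tested. Dut, the dUTPase gene, had -0.46 (limma adjusted p = 0.103). Tyms, which makes thymidylate, had -1.08 and -0.92 under AEPS on the arrays labelled knockdown and scramble, against -0.85 and -0.82 in DMEM, with an estimate of -0.17 (95% interval -0.50 to 0.16). Both AEPS arrays were the lower ones for Tyms, by 0.23 within the knockdown label and 0.11 within the scramble label.

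The 3 genes of replication protein A also differed in their values. Rpa2, the middle subunit, had 0.72 and 0.63 under AEPS on the arrays labelled knockdown and scramble, against 2.15 and 2.24 in DMEM. The lines almost coincided in each medium, and Rpa2 fell 2.86-fold with the smallest adjusted p of the 38 genes (-1.52 ± 0.12 SE; limma adjusted p = 0.0126). Rpa1, the large DNA-binding subunit, fell by 0.92 ± 0.11 (SE; limma adjusted p = 0.0235), and its second probe gave -0.98 on the arrays labelled knockdown and -1.13 on those labelled scramble. Rpa3, the small subunit, had 4.56 and 4.71 under AEPS, against 4.49 and 4.81 in DMEM, with an estimate of -0.02 (95% interval -0.36 to 0.32). The AEPS and DMEM values of Rpa3 overlapped.

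**Figure D2:**
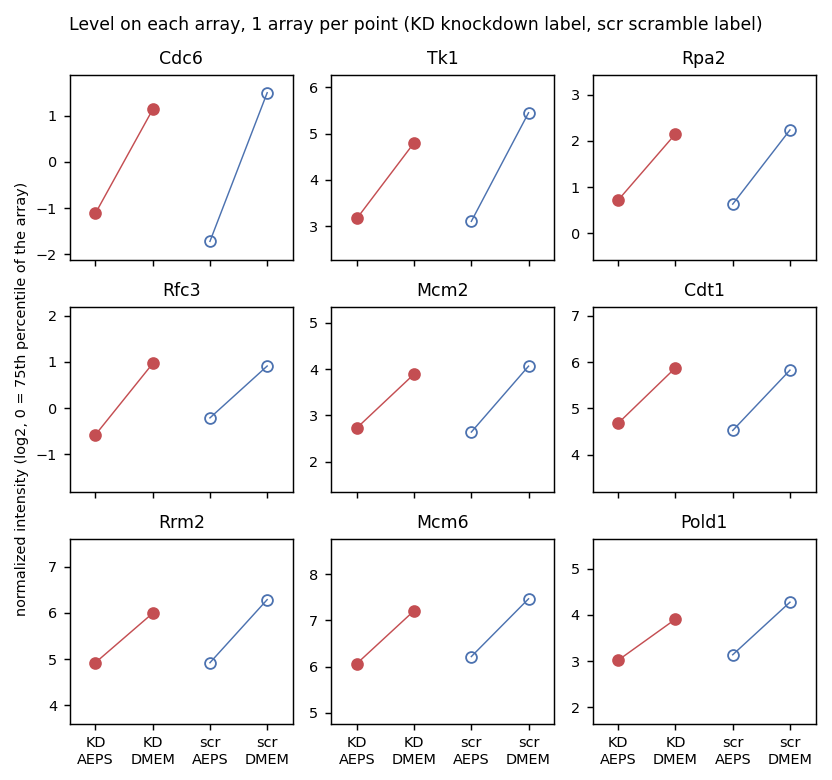
Normalized intensity (log2, 0 is the 75th percentile of the array) of the 9 genes with an estimated fall of at least 2-fold, 1 point per array, each panel spanning 4 log2 units. Filled points are arrays labelled knockdown (KD), open points arrays labelled scramble (scr), and lines join AEPS with DMEM of the same line; every AEPS point lies below both DMEM points of its gene.

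The promoters of the genes with the largest falls are shown because 23 of the 38 genes fell in the same comparison and because E2F factors are known regulators of several of them. RefSeq promoter sequences (GRCm38.p6), which run from 250 bases before to 50 bases after a gene's start, were matched by symbol for 31 of the 38 genes in 35 windows. The letters searched on both strands were TTTCCCGC, TTTCGCGC, TTTGCCGC and TTTGGCGC, the spellings of the E2F-type consensus, which may overlap each other. Below, capitals mark such matches, each promoter is written 5′ to 3′ on the strand of its gene, and the genes are those with a match and the largest falls, followed by Gins3, the gene with a match and the highest estimate. They lie at chr11:98907901-98908200 (plus strand) for Cdc6, chr5:151651159-151651458 (minus) for Rfc3, chr8:122567765-122568064 (plus) for Cdt1, chr1:128359656-128359955 (minus) for Mcm6 and chr8:95633309-95633608 (plus) for Gins3.
Cdc6: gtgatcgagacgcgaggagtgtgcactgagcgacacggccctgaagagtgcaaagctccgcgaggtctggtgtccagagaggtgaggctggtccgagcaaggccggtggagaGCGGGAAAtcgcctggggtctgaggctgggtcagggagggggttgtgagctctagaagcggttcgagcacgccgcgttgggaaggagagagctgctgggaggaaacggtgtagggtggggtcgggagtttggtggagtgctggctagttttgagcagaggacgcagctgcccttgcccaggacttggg
Rfc3: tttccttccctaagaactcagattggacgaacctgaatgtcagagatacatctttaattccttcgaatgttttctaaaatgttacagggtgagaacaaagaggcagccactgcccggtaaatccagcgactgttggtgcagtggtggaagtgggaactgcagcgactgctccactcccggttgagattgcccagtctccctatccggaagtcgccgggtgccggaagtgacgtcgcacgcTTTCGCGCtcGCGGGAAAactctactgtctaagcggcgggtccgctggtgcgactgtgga
Cdt1: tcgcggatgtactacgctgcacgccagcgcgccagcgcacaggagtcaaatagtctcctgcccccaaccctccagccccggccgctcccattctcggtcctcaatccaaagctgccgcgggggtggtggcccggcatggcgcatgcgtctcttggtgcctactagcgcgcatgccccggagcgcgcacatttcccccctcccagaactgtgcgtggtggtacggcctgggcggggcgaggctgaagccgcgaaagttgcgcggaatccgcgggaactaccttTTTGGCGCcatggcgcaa
Mcm6: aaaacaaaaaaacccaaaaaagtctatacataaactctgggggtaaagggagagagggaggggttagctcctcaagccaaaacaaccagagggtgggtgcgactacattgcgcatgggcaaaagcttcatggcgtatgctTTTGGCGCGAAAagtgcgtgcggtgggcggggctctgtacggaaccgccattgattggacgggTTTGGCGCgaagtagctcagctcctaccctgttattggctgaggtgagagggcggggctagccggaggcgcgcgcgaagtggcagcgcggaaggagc
Gins3: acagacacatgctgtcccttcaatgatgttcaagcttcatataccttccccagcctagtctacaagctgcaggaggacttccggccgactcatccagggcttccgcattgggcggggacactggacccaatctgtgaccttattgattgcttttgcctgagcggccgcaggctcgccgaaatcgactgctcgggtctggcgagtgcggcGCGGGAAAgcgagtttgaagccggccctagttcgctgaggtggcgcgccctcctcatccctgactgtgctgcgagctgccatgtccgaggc

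An E2F-type match stood in the promoters of 12 of the 31 genes (38.7%), against 3.29% of 17492 protein-coding genes and 2.26% of all 32851 promoter windows of the same length. By outcome, 9 of the 18 matched genes that fell under AEPS held one, and so did 3 of the 13 that did not pass the test, Mcm7, Pola1 and Gins3. Mcm6 had 3 matches, of which the first 2 overlap on opposite strands, and Rfc3 had 2 on either side of the gene start. Cdc6 had 1 match, beginning 138 bases before the start, and Gins3 had 1 with the same letters, TTTCCCGC on the other strand, beginning 41 bases before the start. Tk1, Rpa2, Mcm2 and Rrm2, with falls of 2-fold or more, had no match within these windows. The box CCAAT, on either strand, was found for 20 of the 31 genes (64.5%), against 42.3% of protein-coding genes. The GC box GGGCGG was found for 23 (74.2%), against 49.2%, and the letters TTTGAA of the cell cycle homology region for 4 (12.9%), against 18.5%. A match describes the letters of the window, and binding was not measured.

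Other genes of the pathway, from lists of 77 genes in all, were read in the same fit. These lists, too, were chosen with earlier results of these data known. Of 40 other replication genes 21 fell and 1 rose by limma, with a median of -0.66. Of 37 other nucleotide synthesis genes 2 fell and 1 rose, with a median of -0.20. Over all 22338 genes tested, 7.29% were called lower and 7.4% higher, and the calls among the other nucleotide synthesis genes did not exceed these shares. Among the largest decreases were those of Gmnn, which encodes the CDT1 inhibitor geminin (-2.21), Clspn, a checkpoint mediator of the replication fork (-1.90), Wdhd1, a fork scaffold (-1.74), Recql4, a helicase gene (-1.44), and Timeless, a fork protection gene (-1.36).

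Both of the listed subunits of the chromatin assembly factor that places histones on new DNA fell, Chaf1b by 1.31 and Chaf1a by 1.31. The 2 increases were of Cmpk2, a mitochondrial nucleotide kinase gene known to respond to interferon (4.56 ± 0.39 SE; limma adjusted p = 0.0136), and Top1, the topoisomerase that also relaxes DNA during transcription (1.11 ± 0.11 SE; limma adjusted p = 0.0176). Samhd1, which degrades deoxynucleotides, had -0.32 and Rrm2b, the ribonucleotide reductase subunit induced by p53, had 0.36, and neither passed (limma adjusted p = 0.242 and 0.156).

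**Figure D3:**
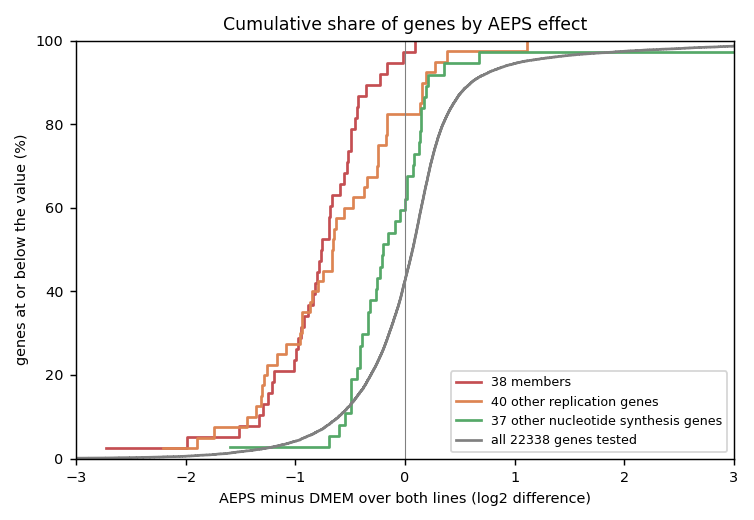
Cumulative share of genes (%) against AEPS minus DMEM over both lines (log2 difference), for the 38 genes, 40 other replication genes, 37 other nucleotide synthesis genes and all 22338 genes tested, with values beyond 3 in size not drawn. The medians are -0.76, -0.66, -0.20 and 0.07 in that order.

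Within each line, with 1 array per group and no test, the falls were present in both. On the arrays labelled knockdown 36 of 38 genes were lower under AEPS than in DMEM (43.7% of all genes), the median was -0.72 and the range -2.24 to 0.10. On the arrays labelled scramble 37 of 38 were lower (43.1% of all genes), the median was -0.78 and the range -3.21 to 0.08. At least 2-fold lower were 8 genes on the arrays labelled knockdown (3.48% of all genes) and 12 on those labelled scramble (5.22%), and 0 genes were 2-fold higher on either (4.64% and 6.69% of all genes). The pairs of arrays share no sample. The 8 genes, Cdc6, Tk1, Rfc3, Rpa2, Cdt1, Mcm2, Mcm6 and Rrm2, were all among the 12, and Rfc1, Pold1, Gins1 and Fen1 made up the rest of the 12. The share of all genes at least 2-fold lower in both pairs is not given here. This overlap was therefore not set against a background.

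The response differed in size for some genes. Subtracting the scramble-labelled response from the knockdown-labelled one gave a value above 0 for 29 of the 38 genes (55.9% of all genes). Among the 37 genes with an estimate below 0, where such a value means a smaller fall with the knockdown label, it was 28, against 65.2% of all genes with an estimate below 0. The median over the 38 genes was 0.15, against 0.04 over all genes. Cdc6 was 4.73-fold lower under AEPS on the arrays labelled knockdown and 9.28-fold lower on those labelled scramble, a difference of 0.97. The second Cdc6 probe gave responses of -2.97 and -3.50 in the same order, so the size of this gap differed between the probes.

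Tk1 was 3.11-fold lower with the knockdown label and 5.09-fold lower with the scramble label, a difference of 0.71. Rfc3 ran the other way, with a 2.91-fold fall on the arrays labelled knockdown and a 2.18-fold fall on those labelled scramble, a difference of -0.42. The difference in response leaves no residual degree of freedom, so none of these values has a test, and each turns its sign if the lines are named as in the value table.

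**Figure D4:**
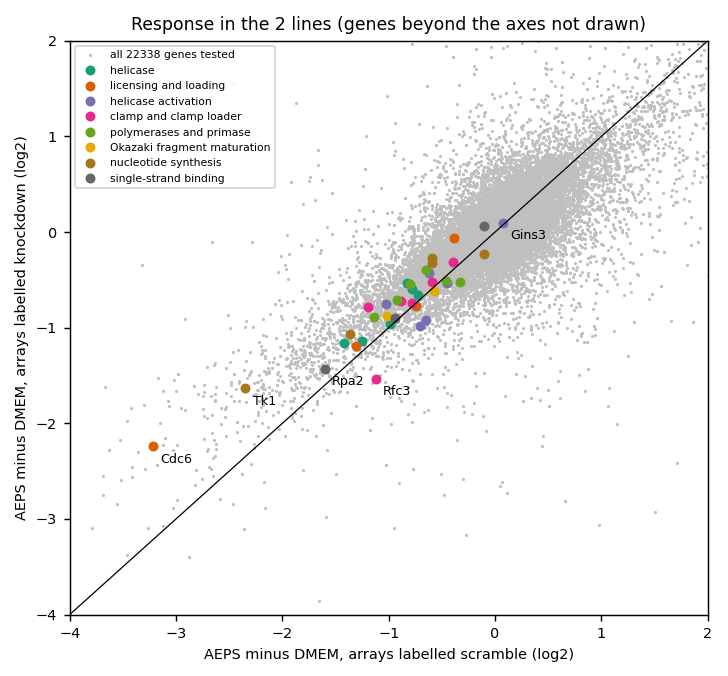
AEPS minus DMEM on the arrays labelled knockdown (vertical, log2) against the same on the arrays labelled scramble (horizontal, log2). The 38 genes are coloured by role and the 22338 genes tested are in grey, with those beyond the axes not drawn. The line marks equal responses; Cdc6 (-2.24 and -3.21) and Tk1 (-1.64 and -2.35) lie above it and Rfc3 (-1.54 and -1.12) below it.

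The last comparison set the lines against each other. Over both media limma called 0 of the 38 genes higher (0.398% of all genes) and 0 lower (0.34%) with the knockdown label. At an unadjusted p under 0.05 it gave 2 lower, Rfc4 and Pola1 (6.99% of all genes), and 0 higher (7.56%). The estimate was below 0 for 32 of 38 genes, against 51.4% of all genes. Among the alternatives that keep the scanner labels, this count ran from 26 with quantile normalization to 34 with the normexp background. The share of all genes below 0 in those alternatives is not given here, so these counts have no background. In the fit as reported the median was -0.18, against -0.01 over all genes. Rfc4 had the lowest estimate, -0.46 ± 0.12 (SE; limma adjusted p = 0.233), and with an intensity trend in the variance prior it was the 1 gene called (limma adjusted p = 0.0273). It had 4.05 on the knockdown-labelled and 4.47 on the scramble-labelled array under AEPS, and 4.58 against 5.07 in DMEM, and its second probe differed by -0.40 under AEPS and -0.52 in DMEM. Pola1 had 2.12 and 2.60 under AEPS on the arrays labelled knockdown and scramble, and 2.63 against 3.06 in DMEM, with an estimate of -0.45 (limma adjusted p = 0.235). For both genes the array labelled knockdown was lower in each medium.

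In DMEM, with 1 array per line, 34 of the 38 genes had their lower level with the knockdown label, against 50.5% of all genes, with a median of -0.22 and a range of -0.65 to 0.06. Under AEPS 24 of 38 were lower, against 49.6% of all genes, with a median of -0.09 and a range of -0.49 to 0.61. In neither medium did any of the 38 genes differ 2-fold between the lines, whereas 1.51% of all genes were 2-fold lower and 2.36% higher in DMEM, and 2.68% and 1.85% under AEPS. The lowest value in DMEM was that of Tk1, with 4.80 on the array labelled knockdown and 5.45 on the array labelled scramble. The highest under AEPS was that of Cdc6, with -1.11 on the array labelled knockdown and -1.72 on the array labelled scramble, and the lowest was that of Mcm10, with 2.65 and 3.13 in the same order. Cdc6 was thus lower with the knockdown label in DMEM and higher under AEPS, by its brightest probe. A change of sign of this kind, with both values beyond the spot error of 0.0655, was seen for 5 of the 38 genes. It was seen for 19.3% of all genes, so it was no more frequent among the 38. These differences have no test.

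**Figure D5:**
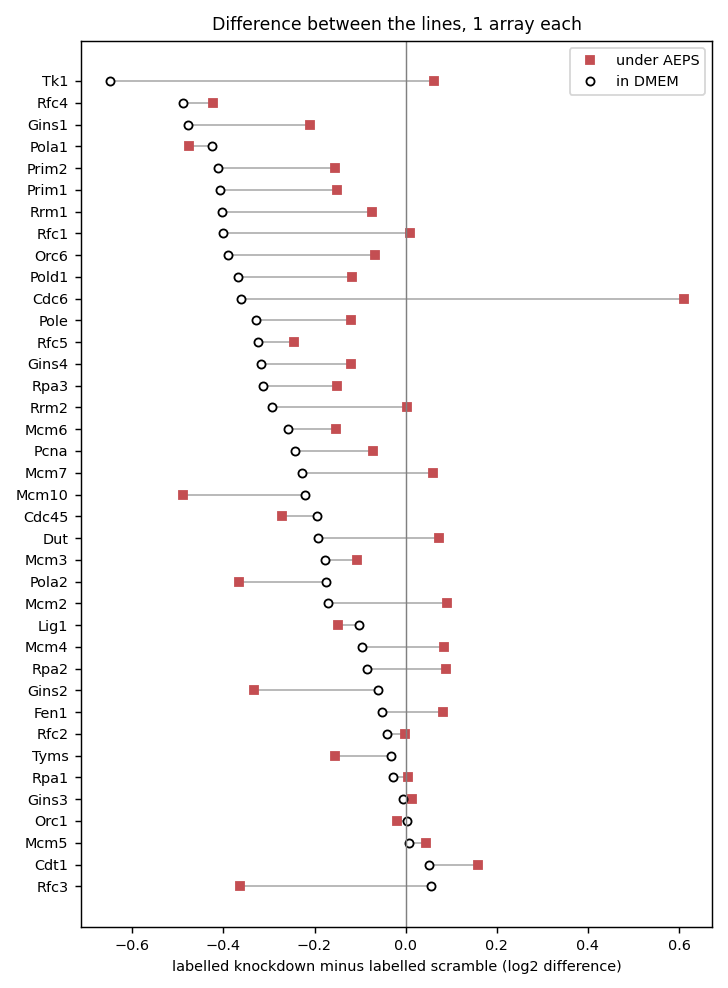
Level on the array labelled knockdown minus that on the array labelled scramble (log2 difference, 1 array each) for the 38 genes, under AEPS (squares) and in DMEM (circles), ordered by the value in DMEM. In DMEM 34 of 38 circles lie left of 0, from -0.65 for Tk1, and under AEPS 24 of 38 squares do, with Cdc6 at 0.61 farthest to the right.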

How the data were processed

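Total RNA of 4 RAW264.7 cultures was labelled in 1 colour with Cy3 and hybridized to Agilent mouse arrays, per the labels. The deposited scanner files hold spot intensity on a linear scale from Agilent Feature Extraction 10.7.1.1, with spatial and multiplicative detrending within the array and no scaling between arrays, per the file headers, which also give the marks for outliers and for spots well above background. The deposited series table holds log2 values quantile-normalized in form, made by steps not given in the sources used here, and served as an alternative. Each array's 75th percentile was subtracted from its log2 intensity, outlier and control spots were left out, and spots of a probe were averaged. Where a gene had several probes, the brightest was used (5 of the 38 genes had more than 1). Probes were named through a RefSeq gene table (GRCm38.p6) by accession (26582), symbol (2602) or synonym (492), and 26005 kept the name of the design. Genes well above background on at least 2 arrays (22338) were fitted with limma 3.58.1 in R 4.3.3 (lmFit, eBayes) on line and treatment, calls being made at a Benjamini-Hochberg adjusted p under 0.05. The prior had 2.82 degrees of freedom and an SD of 0.132. A p-value reflects the line-by-treatment difference on these 4 arrays together with that prior, and holds no scatter between repeated cultures. On simulated data the fit returned the changes put in on average, called most of the larger ones and few of those of 2-fold. Far fewer genes were changed in the simulation than were called in these data, which makes the adjusted p stricter. The share called there is therefore not the power of the fit here. Pairs of arrays were compared by size, a gene being called at 2-fold. The 38 genes and the other lists were chosen with earlier results of these data known. All 38 genes are described, and from the other lists the 6 largest increases (2 were called) and decreases past the threshold, of which 1 is not reported here, with a few further genes chosen after their values were seen.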

Additional observations from a re-analysis of the deposited data

Results flagged for a closer look

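For 5 of the 38 genes the difference between the lines had one sign under AEPS and the other in DMEM, each time by more than 0.0655 on the log2 scale, which is the spread expected between 2 spots of repeated probes. Of all genes above background on the 4 arrays, 19.3% did the same, so it was no more frequent among the 38 genes. The spread is measured between spots within an array and leaves out differences between arrays and between cultures. The difference of the differences, which equals the difference in AEPS response, was 0.97 for Cdc6 (0.61 under AEPS and -0.36 in DMEM), 0.27 for Dut (0.07 and -0.19), 0.26 for Mcm2 (0.09 and -0.17), 0.18 for Mcm4 (0.08 and -0.10) and 0.17 for Rpa2 (0.09 and -0.08). Each value is that of single arrays, labelled knockdown minus labelled scramble, and the difference was not tested. The second Cdc6 probe gave 0.58 under AEPS and 0.05 in DMEM, with no change of sign.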

How the results depend on the processing

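All 8 alternatives to the fit left the median AEPS effect over the 38 genes below 0, between -0.88 and -0.74. With quantile normalization the 38 genes had a median of -0.876 and all genes -0.033, against -0.763 and 0.069 as reported. The 23 genes called lower were all called again with the normexp background (33 called), quantile normalization (27), the value table (26), genes above background on all 4 arrays (30) and an intensity trend (33), 21 of them with probes averaged (21 called), 13 without the line in the model (13 called) and 0 with no filter on dim genes. Of the other pathway genes, 23 lower and 2 higher became 37 and 4 with the trend, 10 and 1 without the line in the model, and 0 and 0 with no filter (limma; 28 lower and 3 higher at an unadjusted p under 0.05). The cause was not tested. With no filter the prior SD was also larger (0.201 against 0.132). Over all genes, 1629 lower and 1653 higher became 2582 and 2525 with normexp, 3073 and 3621 with the trend, 583 and 735 without the line, and 32 and 271 with no filter. On the arrays labelled knockdown, the 8 genes at least 2-fold lower became 13 with quantile normalization, and on those labelled scramble the median became -0.942. In the value table the columns labelled knockdown, which match the scanner arrays labelled scramble (12 genes, median -0.782), gave 16 genes and a median of -0.913. Over all genes the 2-fold lower calls of 777 and 1227 in the knockdown-labelled and scramble-labelled pairs became 387 and 737 with normexp. The value table's knockdown columns gave 1341, to be set against the 1227. The value table's labels turned the line differences round, with medians of 0.14 over both media, 0.189 in DMEM and 0.05 under AEPS, and gave -0.133 for the difference in response, with 9 of 38 genes above 0. With these labels 11 of the 38 line estimates over both media were below 0. The shares of all genes with these labels are not given here, so neither this count nor the 9 of 38 has a background. The turned signs come from the exchange of line labels between the sources, while the changes in size were not tested. The number of genes called lower between the lines was 1 with the trend, Rfc4, and 0 otherwise. No paired analysis was possible because the groups share only the replicate number 1, which gives no pairs to block on, while the line, shared by both media, is a term of the fit as reported. Leaving out an array leaves no residual degree of freedom, so it was not run.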
